A study of Rattus norvegicus with 119 samples.

Results

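The aminotransferases of alanine and aspartate were followed in rat bladder urothelium through 5 array probes of the 30367 in the deposited table, which stand for 4 genes (Gpt, Gpt2, Got1 and Got2) of 16951 with a symbol. The probes are all those whose gene symbol on the platform is one of these 4 names, and symbols brought up to date through RefSeq accessions gave the same 5. The genes themselves were chosen from treated against vehicle differences already known in these arrays, so their differences from vehicle are given as descriptions and not tested.

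Aminotransferases move an amino group between an amino acid and a keto acid, with pyridoxal phosphate as cofactor. Gpt encodes the cytosolic alanine aminotransferase and Gpt2 the mitochondrial one, and both interconvert alanine and pyruvate with glutamate and 2-oxoglutarate. Got1 encodes the cytosolic aspartate aminotransferase and Got2 the mitochondrial one, which together with malate dehydrogenases and mitochondrial carriers form the malate-aspartate shuttle that carries reducing equivalents into mitochondria. The same enzyme activities in blood are read clinically as signs of liver injury, but blood was not analysed here.

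Sprague-Dawley rats of both sexes were dosed orally each day over 3, 28 or 90 days with pioglitazone hydrochloride at 16 mg/kg/day (low dose) or at 63 mg/kg/day (high dose), rosiglitazone maleate at 10 mg/kg/day, or the vehicle of 0.5% methylcellulose that all animals were given. Pioglitazone and rosiglitazone are thiazolidinediones, which activate the nuclear receptor PPAR-gamma. Urothelium was scraped from the opened bladder 1 day after the last dose, and the RNA of 1 animal was hybridised to each one-colour array; the animals' ages are not given in the sources used here. Of 119 arrays, 116 marked by the submitters as passing quality control were used, namely 28 from the low pioglitazone dose, 28 from the high dose, 30 from rosiglitazone and 30 from vehicle, in 24 groups of 4 or 5. All values are log2 signals as deposited, all differences are treated minus vehicle, and the 3 treatments share the same vehicle arrays. Values in threes are for low-dose pioglitazone, then the high dose, then rosiglitazone.

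Array medians lay between 6.40 and 6.63, and the number of animals limits the precision. All 16 urothelium markers, among them the uroplakins and keratins, were measured above the filter on low signal. Their mean per array, which left out Pparg, the gene of PPAR-gamma, ranged from 13.2 to 15.0. The same mean is meant wherever the mean of the urothelium markers is named. The mean of the smooth muscle markers ranged from 6.46 to 15.7. Arrays stood apart in 2 cases: their median correlation with the other arrays was 0.817 for high-dose pioglitazone females at day 3, replicate 3, and 0.861 for low-dose pioglitazone females at day 28, replicate 5, against 0.927 to 0.984 for the rest. Both bear on the alanine aminotransferases. The high-dose array had the lowest Gpt signal of all 116 arrays (6.17) and the highest Gpt2 signal (10.15), and the low-dose array had rank 4 from the lowest for Gpt (9.28) and had the second highest Gpt2 (9.85). They also had a smooth muscle mean of 15.6 and 14.1 and low leukocyte marker means, 8.14 (the lowest of all arrays) and 8.89. Most results they touch are given with and without them, a choice made after seeing the data. Fits with marker means as covariates keep them.

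Gpt, the cytosolic alanine aminotransferase, was the member that differed most from vehicle. The gene lies at chr7:110295599-110300134 in GRCr8, the build of the RefSeq table. Gpt averaged 10.10 ± 0.34 with low-dose pioglitazone (SD, n = 28), 9.97 ± 0.84 with high-dose pioglitazone (n = 28) and 10.02 ± 0.48 with rosiglitazone (n = 30), against 10.90 ± 0.36 in vehicle rats (n = 30). Averaged over the 6 combinations of sex and day, it was 1.76-fold, 1.92-fold and 1.84-fold lower at the low and high pioglitazone doses and with rosiglitazone than with vehicle. Without the 2 arrays the differences were -0.78 ± 0.09, -0.78 ± 0.09 and -0.88 ± 0.09 (log2, SE), against -0.81 ± 0.13, -0.94 ± 0.13 and -0.88 ± 0.13 with them. The high dose thus gave the largest value only with its outlying array. Without the 2 arrays the high-dose mean was 10.11 ± 0.40 (SD, n = 27).

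Among all 12713 genes tested with limma, 2.84% passed an adjusted p under 0.05 (Benjamini-Hochberg) with low-dose pioglitazone, 6.59% with high-dose pioglitazone and 5.62% with rosiglitazone. These contrasts were in view when the 4 genes were picked, so no member is counted against that background. At the low pioglitazone dose 19 of 28 arrays, at the high dose 17 of 28 and under rosiglitazone 20 of 30 had less Gpt signal than the lowest vehicle array (10.24). No treated array exceeded the highest vehicle array (11.84).

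**Figure D1:**
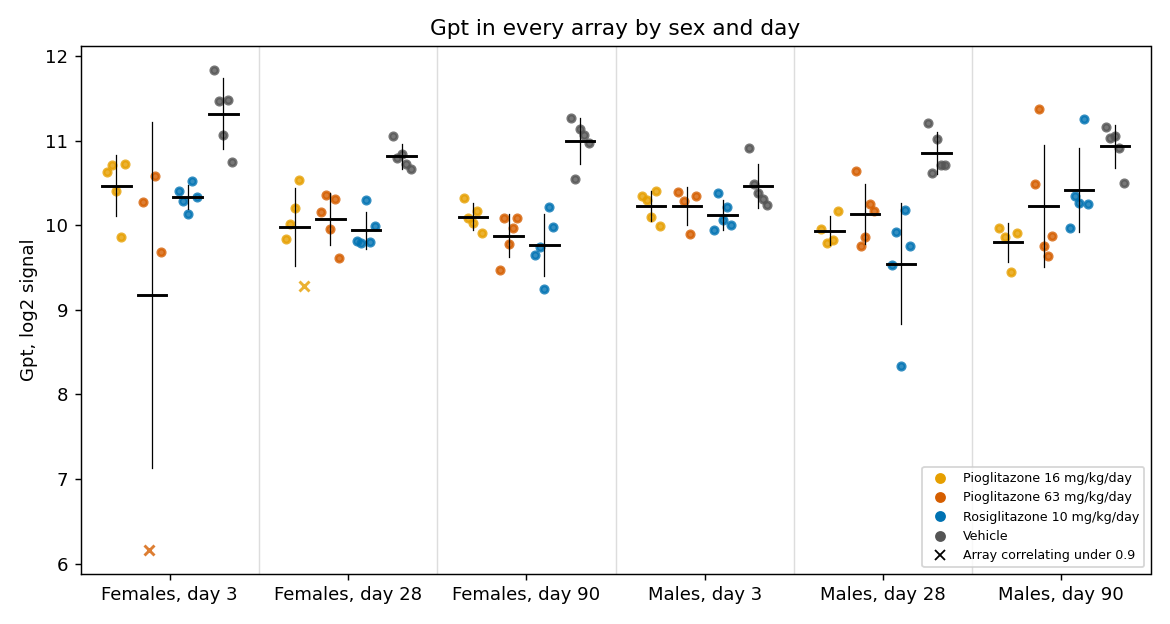
Gpt log2 signal (vertical axis) in every array, by sex and day (horizontal axis) and treatment (colour). Bars are group means, lines are 1 SD each side (n = 4 or 5), and crosses are the 2 arrays correlating under 0.9. Treated arrays lie below vehicle arrays in most groups. They overlap vehicle in all treated males at day 3, in high-dose males at days 28 and 90, and in rosiglitazone males at day 90.

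In females at day 3, Gpt signals were 10.63, 10.71, 10.41, 9.86 and 10.72 with low-dose pioglitazone. High-dose females had 10.27, 6.17, 10.58 and 9.68, the second of these on the outlying array. Rosiglitazone females had 10.40, 10.28, 10.14, 10.52 and 10.33, against 11.84, 11.47, 11.07, 11.48 and 10.75 in vehicle females. Every treated female lay below every vehicle female, with mean differences of -0.85, -2.14 and -0.98 at the low and high pioglitazone doses and with rosiglitazone. Without the outlying array the high-dose difference was -1.14. Arrays of the groups failed to overlap for 1.13%, 2.8% and 1.79% of all genes tested in these 3 comparisons.

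In females at day 28, Gpt signals were 9.84, 10.02, 10.20, 10.53 and 9.28 with low-dose pioglitazone, the last on the other outlying array. High-dose females had 10.16, 10.36, 9.95, 10.31 and 9.61. Rosiglitazone females had 9.81, 9.80, 10.29, 9.80 and 9.99, against 11.06, 10.80, 10.84, 10.72 and 10.67 in vehicle females. Again no treated array reached the lowest vehicle array, and the mean differences were -0.84 (-0.67 without the outlying array), -0.74 and -0.88. The share of all genes without overlap was 2.14%, 4.04% and 3.96%.

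In females at day 90, low-dose pioglitazone gave Gpt signals of 10.32, 10.09, 10.03, 10.17 and 9.91. High-dose females had 9.47, 10.08, 9.78, 9.96 and 10.09. Rosiglitazone females had 9.64, 9.75, 9.25, 10.21 and 9.98, against 11.27, 10.54, 11.13, 11.06 and 10.97 in vehicle females. The groups did not overlap, and the mean differences of -0.89, -1.12 and -1.23 rest on none of the outlying arrays. Of all genes, 2.44%, 5.6% and 5.23% did not overlap.

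Males at day 3 had the smallest Gpt differences with each treatment. Low-dose pioglitazone gave 10.35, 10.30, 10.09, 10.40 and 9.99. High-dose males had 10.39, 10.29, 9.90 and 10.35. Rosiglitazone males had 9.94, 10.38, 10.07, 10.21 and 10.00, against 10.91, 10.49, 10.38, 10.31 and 10.24 in vehicle males. All 3 treated groups overlapped the vehicle group, which was itself the lowest of the 6 vehicle groups, and the mean differences were -0.24 ± 0.32, -0.23 ± 0.34 and -0.34 ± 0.32 (SE). Of all genes, 0.315%, 2.17% and 1.54% did not overlap in these comparisons.

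In males at day 28, Gpt signals were 9.96, 9.80, 9.83 and 10.17 with low-dose pioglitazone. High-dose males had 10.65, 9.75, 9.87, 10.25 and 10.17. Rosiglitazone males had 9.53, 9.92, 8.33, 10.18 and 9.76, against 11.21, 10.62, 11.02, 10.72 and 10.71 in vehicle males. Low-dose pioglitazone and rosiglitazone males lay wholly below vehicle males, and a single high-dose array (10.65) lay just above the lowest vehicle array (10.62). The mean differences were -0.92, -0.72 and -1.31, and 6.36%, 1.08% and 1.22% of all genes did not overlap.

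In males at day 90, low-dose pioglitazone gave Gpt signals of 9.97, 9.86, 9.45 and 9.91. High-dose males had 10.49, 11.37, 9.76, 9.64 and 9.87. Rosiglitazone males had 9.97, 10.35, 10.26, 11.26 and 10.25, against 11.16, 11.04, 11.05, 10.91 and 10.51 in vehicle males. Only the low-dose group was free of overlap, and 1 high-dose array (11.37) and 1 rosiglitazone array (11.26) exceeded all vehicle males. The mean differences were -1.14, -0.71 and -0.52, and 5.89%, 3.7% and 2.89% of all genes did not overlap.

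Over these 18 comparisons of a sex and day, the mean Gpt difference was negative in 18, and in 12 no treated array overlapped the vehicle arrays (5 of 6 at the low pioglitazone dose, 3 of 6 at the high dose and 4 of 6 under rosiglitazone). Without the 2 outlying arrays it was again negative in 18, from -1.31 to -0.23. When the 24 group means were ordered, the 5 highest Gpt means were vehicle groups, led by females at day 3 (11.32 ± 0.42, SD, n = 5), and the remaining vehicle group, males at day 3 (10.47 ± 0.27), stood seventh, level with low-dose pioglitazone females at day 3 (10.47 ± 0.36). The lowest mean was that of high-dose females at day 3 (9.18 ± 2.04, n = 4), which holds the outlying array. Neighbouring groups in this order were at most 0.37 apart and in 0 of 23 pairs further apart than the larger SD of the pair.

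For all 4 genes it was tested whether the difference from vehicle varied with sex or day, and whether treatments differed from each other. In none of them did a member pass. For the difference of the effect between females and males, limma with Benjamini-Hochberg adjustment called 0% of the genes with any of the treatments, although 598, 981 and 695 of the 12713 genes had an unadjusted p under 0.05 at the low and high pioglitazone doses and with rosiglitazone. In fits of each sex alone, the Gpt effect of high-dose pioglitazone was -1.33 ± 0.21 in females and -0.55 ± 0.15 in males. In the fit of all arrays the sexes differed by -0.78 (95% confidence interval -1.30 to -0.26, limma adjusted p = 0.483). Without the 2 arrays they differed by -0.45 (-0.81 to -0.08, limma adjusted p = 0.541). The female value holds an outlying array. Without it the female differences were -1.14, -0.74 and -1.12 at 3, 28 and 90 days, against -0.23, -0.72 and -0.71 in males. With rosiglitazone females and males differed by -0.31 (-0.82 to 0.20, adjusted p = 0.999), and at the low pioglitazone dose by -0.10 (-0.62 to 0.43, adjusted p = 0.998). Missing the threshold does not show that the sexes responded alike.

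Across the days, Gpt differed from vehicle by -0.55 ± 0.22, -0.88 ± 0.23 and -1.02 ± 0.23 at 3, 28 and 90 days with low-dose pioglitazone (log2, SE), the second being -0.79 without the outlying array. High-dose pioglitazone gave -1.19 ± 0.24, -0.73 ± 0.22 and -0.91 ± 0.22 at the same days, and without the outlying array the first of these was -0.69 ± 0.17. Rosiglitazone gave -0.66 ± 0.22, -1.09 ± 0.22 and -0.87 ± 0.22. An F test of the effect across days passed for 0.00787%, 0.0157% and 0.0393% of all genes at the low and high pioglitazone doses and with rosiglitazone. Gpt was not among them (limma, adjusted p = 0.999, 0.974 and 0.724), nor were Gpt2, Got1 and Got2 (adjusted p from 0.617 to 0.999).

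Doses of pioglitazone and rosiglitazone differ, so their values stand side by side without a ranking of the compounds. The Gpt level with high-dose pioglitazone differed from that with low-dose pioglitazone by -0.13 (95% confidence interval -0.40 to 0.14, limma adjusted p = 0.762), and by 0.01 (-0.18 to 0.20) without the 2 arrays. Rosiglitazone differed from low-dose pioglitazone by -0.06 (-0.33 to 0.20, adjusted p = 0.997) and from high-dose pioglitazone by 0.07 (-0.20 to 0.33, adjusted p = 0.984), which was -0.10 without the 2 arrays. The test between treatments called 0% of all genes in these 3 comparisons, with 1090, 433 and 389 genes at an unadjusted p under 0.05. For Gpt2, Got1 and Got2 the 9 differences between treatments lay between -0.11 and 0.05, and between -0.12 and 0.23 without the 2 arrays.

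**Figure D2:**
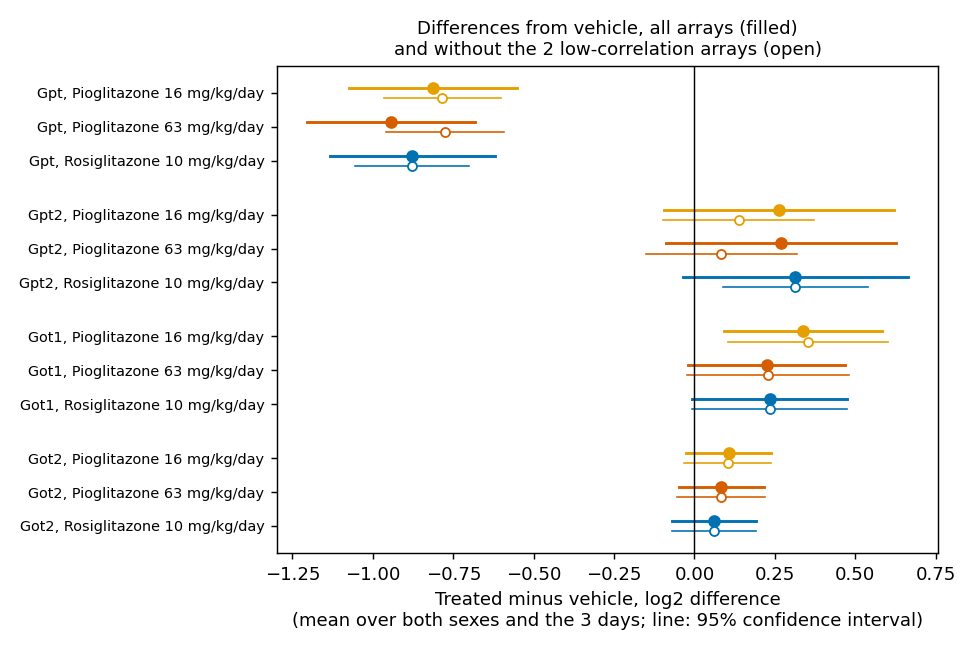
Treated minus vehicle log2 difference (horizontal axis) of each gene with each treatment, as the mean over both sexes and 3 days, with 95% confidence intervals. Filled points use all 116 arrays and open points leave out the 2 arrays correlating under 0.9; Gpt lies between -0.94 and -0.78 in both, and the other genes lie between 0.06 and 0.35.

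All leukocyte markers measured were lower with each treatment, as Gpt was. So were all 4 erythrocyte markers measured, so the parallel with Gpt was not particular to leukocytes. Of 9 leukocyte markers measured, 5 fell at the low pioglitazone dose, 8 at the high dose and 6 under rosiglitazone (limma, adjusted p under 0.05). Cd74, the invariant chain of antigen presentation, gave -0.49, -0.67 and -0.46, and Tyrobp, a signalling adaptor of myeloid and NK cells, gave -0.41, -0.49 and -0.45. Ptprc, the CD45 gene of all leukocytes, fell by 0.38 with high-dose pioglitazone and by 0.43 with rosiglitazone. The mean of the list per array ranged over 8.89 to 10.3, 8.14 to 9.89 and 8.68 to 10.2 in the treated arrays, against 9.08 to 10.4 in vehicle arrays. In bulk RNA, fewer cells of a type and less RNA per cell cannot be told apart. With that mean as a covariate, an alternative chosen after seeing the data, the Gpt differences were -0.52 ± 0.13, -0.56 ± 0.14 and -0.58 ± 0.13. In high-dose males at day 3 the difference was then 0.11. This fit used all 116 arrays. Its covariate was itself lower with treatment (medians 9.51, 9.47 and 9.43, against 9.70 with vehicle). The fit therefore cannot tell the parts of treatment and of leukocyte markers apart. Deviations of Gpt and of the leukocyte mean from their group means correlated at 0.48 over 116 arrays and at 0.27 over 114. How far the covariate changes Gpt without the 2 outlying arrays was not tested.

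Smooth muscle and urothelium marker means were also fitted as covariates for Gpt. The remaining lists were not, so their part in the Gpt difference was not tested. Over the 114 arrays without the outlying ones, Gpt deviations followed the adipocyte mean at 0.42. The neuron and Schwann cell mean gave 0.28 and the leukocyte mean 0.27. Smooth muscle markers passed in 0 of 8 with each treatment, with list medians of -0.61, 0.35 and -0.52 and per-array means of 7.31 to 14.8, 6.93 to 15.6 and 6.46 to 15.7, against 6.92 to 14.6 in vehicle arrays. With that mean as a covariate Gpt gave -0.82, -0.94 and -0.88, and with the mean of the urothelium markers -0.85, -0.95 and -0.90, as large as without a covariate. Of 9 hepatocyte markers, 2 exceeded the filter on low signal. The transthyretin gene Ttr rose by 1.34, 1.44 and 1.58 (limma, adjusted p under 0.05), and the other marker gave -0.37, -0.28 and -0.21 without passing. The mean of the pair per array ranged over 7.54 to 8.97, 7.11 to 9.51 and 7.29 to 9.13 in the treated arrays, against 6.62 to 8.74 in vehicle arrays, and its part in the Gpt difference was not tested. Among urothelium markers Krt19, a keratin, rose by 0.43, 0.34 and 0.46. Foxa1 gave -0.27, -0.42 and -0.22 and passed at the high pioglitazone dose. Pparg, the receptor of the drugs, gave -0.23 at the low pioglitazone dose. It fell by 0.52 at the high dose and by 0.28 with rosiglitazone. In the remaining lists the genes that passed were Slc4a1, the red cell anion exchanger, and the endothelial claudin Cldn5. Slc4a1 fell by 0.73, 0.81 and 0.68. Cldn5 gave -0.63, -0.43 and -0.71 and passed with rosiglitazone only. No skeletal muscle, adipocyte, fibroblast or neural marker passed with any treatment, among 7, 5, 8 and 4 measured.

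**Figure D3:**
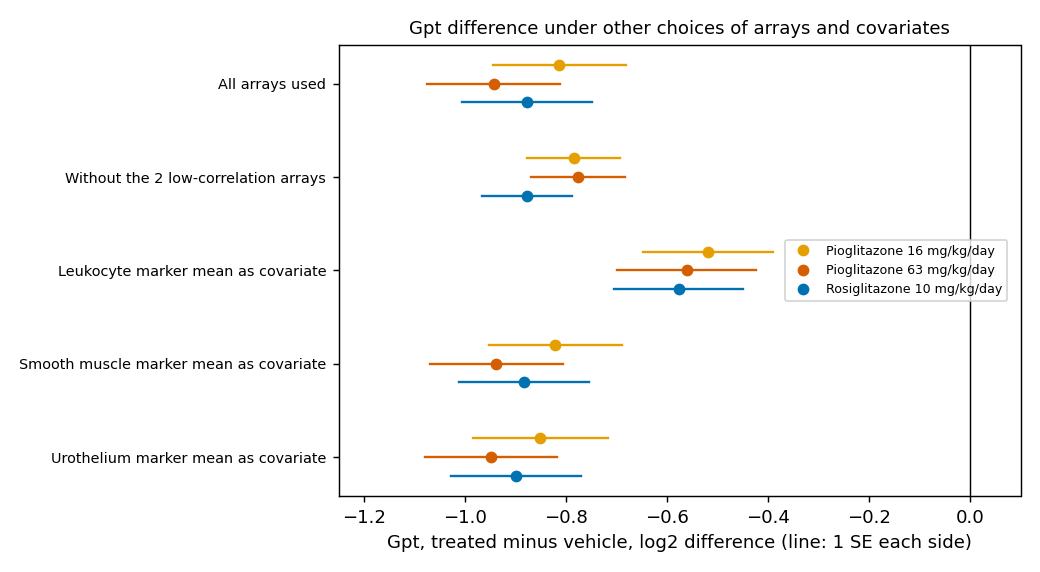
Gpt treated minus vehicle log2 difference (horizontal axis, lines are 1 SE each side) for the 3 treatments under the choices of arrays and covariates named on the vertical axis. The points lie between -0.95 and -0.78 except with the leukocyte marker mean as a covariate, where they lie between -0.58 and -0.52. The fits with a covariate used all 116 arrays, and only leukocyte, smooth muscle and urothelium marker means were fitted.

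Gpt2, the mitochondrial alanine aminotransferase, was measured near the lower end of the signals used. The gene lies at chr19:37700023-37734551, and its brighter probe averaged 5.82, close to the filter at 5.26. Gpt2 averaged 5.89 ± 0.87 with low-dose pioglitazone, 5.86 ± 0.91 with high-dose pioglitazone and 5.93 ± 0.68 with rosiglitazone, against 5.61 ± 0.33 in vehicle rats (SD, n = 28, 28, 30 and 30). The differences of 0.26 ± 0.18, 0.27 ± 0.18 and 0.31 ± 0.18 (log2, SE) became 0.14 ± 0.12, 0.08 ± 0.12 and 0.31 ± 0.11 without the 2 outlying arrays. With the leukocyte mean as a covariate, and the outlying arrays kept, the differences were -0.03, -0.12 and 0.01. Deviations of Gpt2 and of that mean from their group means correlated at -0.35 over 116 arrays and at -0.07 over 114. The covariate was not tested without the outlying arrays. Treated and vehicle arrays overlapped in 18 of 18 comparisons of a sex and day.

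High Gpt2 signals came from few arrays. Signals over 7 occurred in 5 of the 116, all of treated rats. Rosiglitazone males at day 90 had 5.70, 5.78, 8.12, 7.14 and 5.83, against 5.71, 5.41, 5.56, 5.73 and 5.53 in vehicle males, where 2 of the 5 treated arrays exceeded 7 and the mean difference was 0.93. Rosiglitazone females at day 28 had 6.32, 5.98, 5.72, 7.83 and 5.77, against 5.82, 5.64, 6.04, 5.77 and 5.14 in vehicle females. The 3 rosiglitazone arrays over 7 had median correlations with the other arrays of 0.937, 0.948 and 0.952, against 0.980 for the median array. Leaving out all 9 arrays correlating under 0.95, which spares the last of these, gave Gpt2 differences of 0.15 ± 0.10, 0.12 ± 0.10 and 0.20 ± 0.10.

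A second Gpt2 probe averaged 5.11 and fell under the filter. It gave 0.28 ± 0.15, 0.05 ± 0.15 and 0.33 ± 0.14, and the deviations of both probes from their group means correlated at r = 0.17 over 116 arrays (0.08 over 114 without the outlying arrays, a description across arrays that share groups). On the 5 arrays where the brighter probe exceeded 7, the second probe read 5.44, 6.33, 5.15, 4.84 and 5.40. The table holds no detection flags, so whether Gpt2 was above background was not tested.

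Got1 and Got2, the cytosolic and mitochondrial aspartate aminotransferases, were each measured by 1 bright probe. Got1 lies at chr1:252306541-252337622 and Got2 at chr19:9180428-9206113. Got1 averaged 11.15 ± 0.48 with low-dose pioglitazone (SD, n = 28), 11.07 ± 0.52 with high-dose pioglitazone (n = 28) and 11.06 ± 0.50 with rosiglitazone (n = 30), against 10.82 ± 0.60 in vehicle rats (n = 30). Its differences were 0.34 ± 0.12, 0.22 ± 0.12 and 0.23 ± 0.12 (log2, SE). Got2 averaged 12.93 ± 0.25, 12.94 ± 0.31 and 12.90 ± 0.27 in the same treated groups, against 12.84 ± 0.32 in vehicle rats, with differences of 0.11 ± 0.07, 0.08 ± 0.07 and 0.06 ± 0.07. Without the outlying arrays the differences were 0.35, 0.23 and 0.23 for Got1 and 0.10, 0.08 and 0.06 for Got2.

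By sex and day, Got1 was highest relative to vehicle in females at day 28. Low-dose pioglitazone gave 11.81, 11.46, 11.28, 11.18 and 10.96 there, high-dose pioglitazone 11.51, 11.22, 11.17, 11.24 and 11.53, and rosiglitazone 11.60, 10.97, 11.23, 11.18 and 11.49. Vehicle females at day 28 spread over 9.67, 10.79, 11.29, 11.26 and 10.17, so 3 of the 5 vehicle arrays lay below every treated array and the other two overlapped them. The mean differences were 0.70 (0.80 without the outlying array), 0.70 and 0.66. Over the 18 comparisons Got1 ran from -0.17 to 0.70, and the effect in females minus that in males was 0.38, 0.31 and 0.22 with none past the test (limma, adjusted p = 0.998, 0.804 and 0.999). For Got2 that difference had the other sign, -0.26, -0.24 and -0.19 (adjusted p = 0.998, 0.703 and 0.989).

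Got2 ran from -0.33 to 0.49 over the same 18 comparisons. In low-dose pioglitazone males at day 28 it read 13.19, 13.15, 13.15 and 13.12, against 12.46, 12.94, 12.86, 12.85 and 12.98 in vehicle males. For Got1, Got2 and Gpt2 this was the only comparison without overlap with vehicle. Of all genes tested, 6.36% did not overlap there, so nothing particular to Got2 is read from it. High-dose males at day 3 read 12.94, 13.05, 13.02 and 13.03, against 12.97, 12.72, 11.39, 12.80 and 12.73 in vehicle males. The difference of 0.49 there (0.20 without the vehicle arrays numbered 3) holds 1 vehicle array at 11.39, which also had the lowest Got1 signal of all arrays (9.24).

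**Figure D4:**
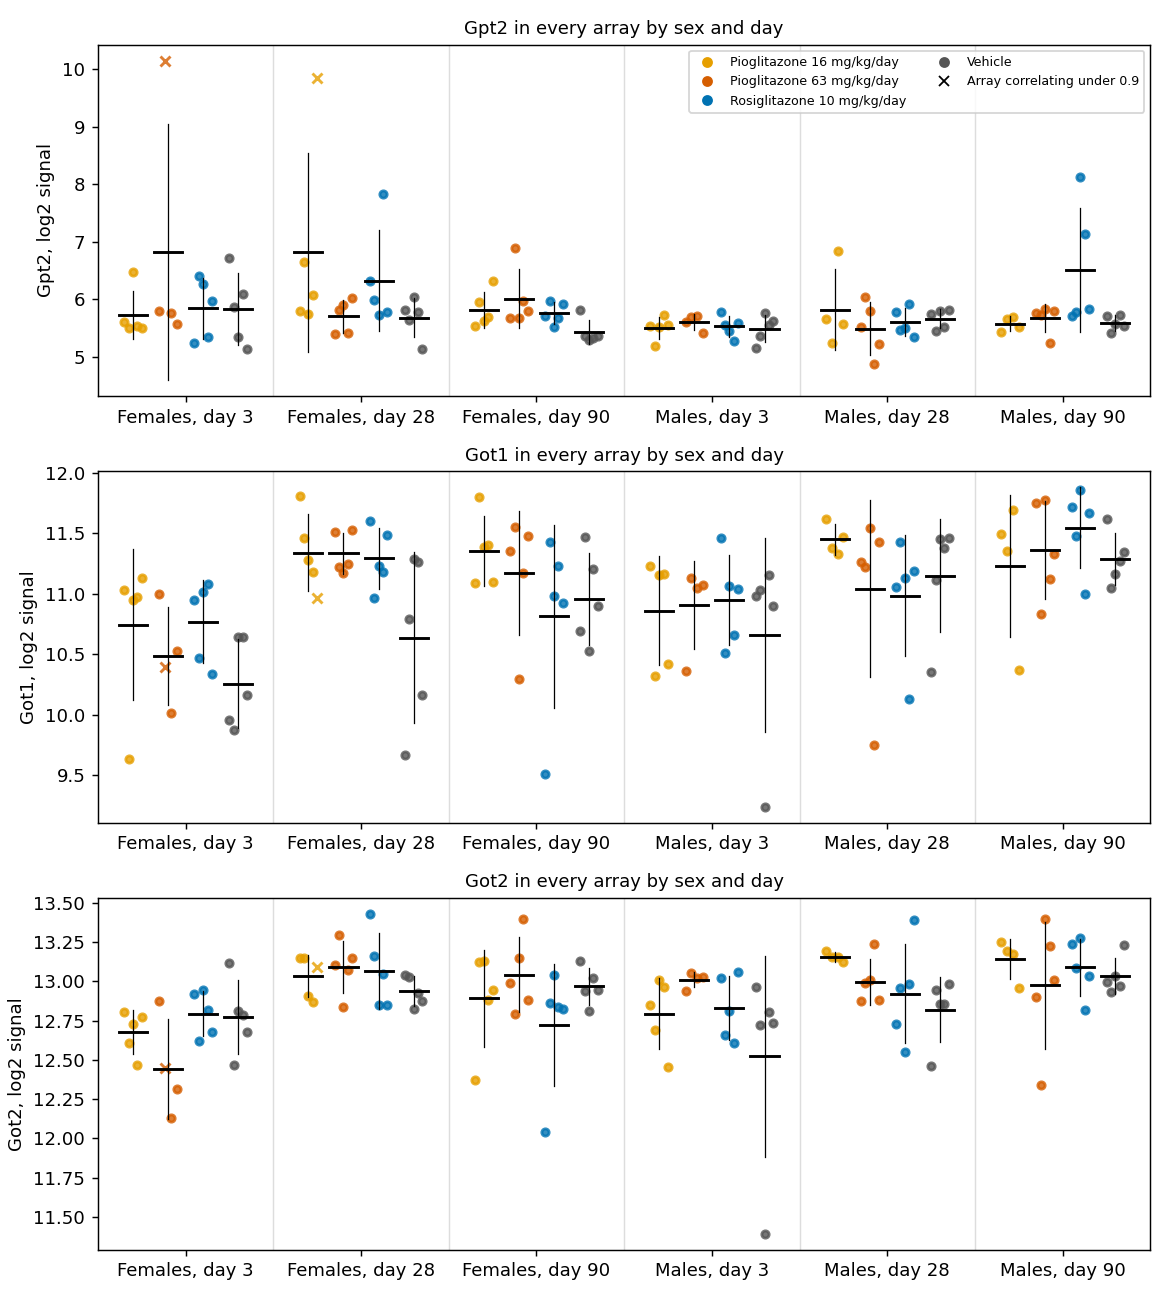
Log2 signal (vertical axis) of Gpt2, Got1 and Got2 in every array, by sex and day (horizontal axis) and treatment (colour). Bars are group means, lines are 1 SD each side (n = 4 or 5), and crosses are the 2 arrays correlating under 0.9; the 5 Gpt2 signals over 7 are all in treated rats, and single low Got1 arrays appear in every arm.

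Among vehicle rats the aspartate aminotransferases were lowest at the first time point. Got1 averaged 10.46 ± 0.62, 10.89 ± 0.63 and 11.12 ± 0.34 at 3, 28 and 90 days (SD, n = 10 each), and Got2 averaged 12.65 ± 0.47, 12.88 ± 0.16 and 13.00 ± 0.12. The F test across days passed for 6.62% of all genes in vehicle rats, but not for Got1 (limma, F = 5.21, adjusted p = 0.0758) or Got2 (F = 4.98, adjusted p = 0.0838). Got2 passed without the vehicle arrays of replicate number 1 (adjusted p = 0.038) and had an adjusted p of 0.435 without those of number 3. Gpt at 10.89 ± 0.56, 10.84 ± 0.19 and 10.96 ± 0.25 and Gpt2 at 5.66 ± 0.48, 5.67 ± 0.25 and 5.51 ± 0.19 had adjusted p-values of 0.941 and 0.935. Between vehicle females and males, 0.149% of all genes passed and no member did. Got1 was 0.42 lower in females (interval -0.76 to -0.08, adjusted p = 0.394), and Gpt was 0.29 higher in females (-0.07 to 0.65, adjusted p = 0.676). The Gpt gap lay mostly at day 3, where vehicle females averaged 11.32 and vehicle males 10.47. Females and males averaged 10.82 and 10.86 at day 28, and 10.996 and 10.934 at day 90. From day 3 to day 28 the Gpt mean thus fell in females and rose in males, which the day means over both sexes hide. Whether the change over days differed between vehicle females and males was not tested.

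Within groups, Got1 and Got2 moved together. Deviations from the group means correlated at r = 0.48 over 116 arrays and at 0.48 over the 114 without the outlying arrays; the genes share the arrays and their makeup, and the value is a description. Got1 followed the mean of the urothelium markers at r = 0.65 and Got2 at 0.60, against -0.59 and -0.41 with fibroblast and matrix markers. The alanine aminotransferases behaved otherwise. Gpt and Gpt2 correlated at -0.46 over 116 arrays and at 0.09 over 114, so the negative value rests on the 2 outlying arrays, and Gpt followed the urothelium mean at 0.14 (-0.15 over 114), the leukocyte mean at 0.48 (0.27 over 114), the adipocyte mean at 0.26 (0.42 over 114) and the mean of neuron and Schwann cell markers at 0.33 (0.28 over 114). With the urothelium mean as a covariate the Got1 differences from vehicle were 0.18 ± 0.10, 0.20 ± 0.09 and 0.14 ± 0.09, and those of Got2 were 0.03, 0.07 and 0.02.

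**Figure D5:**
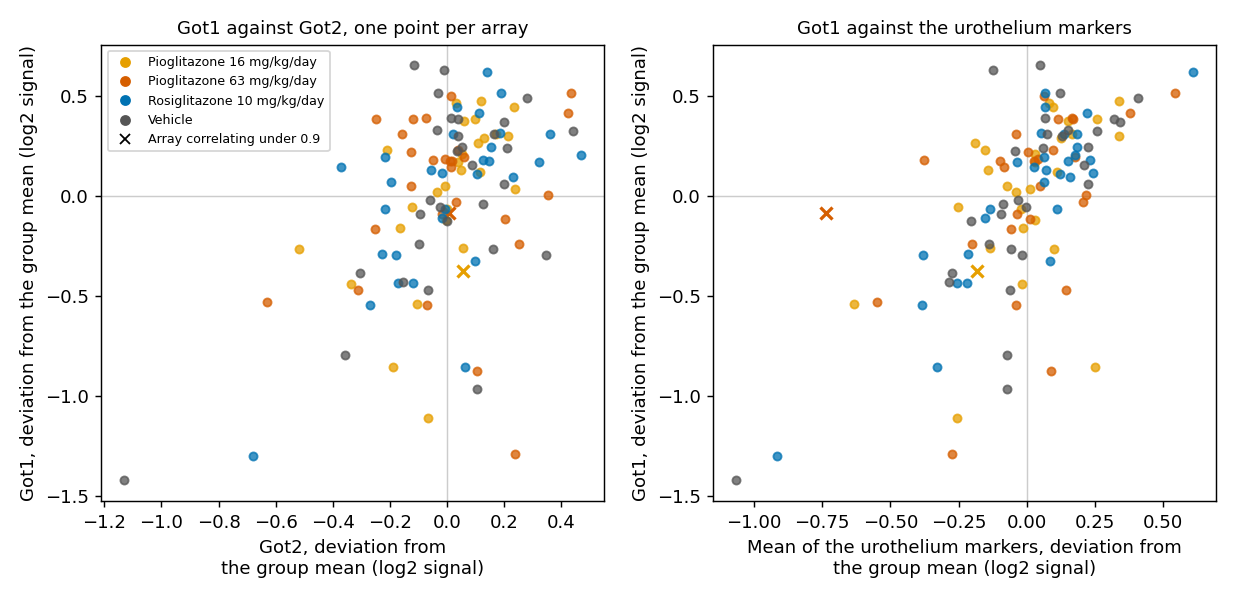
Deviation of Got1 from its group mean (vertical axes, log2 signal) against that of Got2 (left) and of the mean of the urothelium markers (right), 1 point per array, coloured by treatment. Over 116 arrays r was 0.48 with Got2 and 0.65 with the urothelium markers, and vehicle and treated arrays are spread along the same cloud.

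The 250 bases before the transcription starts of Got1 and Got2 are shown, from the RefSeq promoter table of build GRCr8, which matched 3 of the 4 genes. Both genes followed the urothelium marker mean within groups (r = 0.65 and 0.60). Their correlation is therefore no ground to expect shared promoter control, which was not tested. Capitals mark matches on either strand to CCAAT (the CCAAT box, ATTGG on the other strand) or GGGCGG (the GC box, CCGCCC on the other strand). The composite sites of PPAR with RXR (AGGTCA in 2 copies 1 base apart) and of ATF4 with C/EBP (TGATGNAAT) matched in neither, nor in the Gpt2 stretch. CCAAT is contained in none of the other motifs.
Got1, chr1:252329872-252330121, minus strand: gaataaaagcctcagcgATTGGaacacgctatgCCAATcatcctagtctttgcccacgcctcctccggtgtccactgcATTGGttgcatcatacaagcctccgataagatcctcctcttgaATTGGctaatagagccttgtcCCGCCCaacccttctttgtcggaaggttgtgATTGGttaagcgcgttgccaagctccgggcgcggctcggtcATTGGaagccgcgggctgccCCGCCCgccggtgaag
Got2, chr19:9180178-9180427, plus strand: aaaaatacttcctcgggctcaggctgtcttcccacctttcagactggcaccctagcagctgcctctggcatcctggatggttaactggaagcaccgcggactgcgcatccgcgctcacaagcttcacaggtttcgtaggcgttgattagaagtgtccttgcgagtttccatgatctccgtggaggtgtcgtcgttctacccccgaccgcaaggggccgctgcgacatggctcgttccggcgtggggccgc
The Got1 stretch held CCAAT 6 times and GGGCGG 2 times, and the Got2 stretch held neither. Of all 33469 promoters in the table, 34.0% held CCAAT, 30.5% GGGCGG, 0.944% the ATF4 composite and 0.051% the PPAR composite in the same window. A match is a description of the letters and not of binding. The Got1 and Gpt2 starts used by the table lie inside the annotated spans of these genes.

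Likeness to single genes was ranked by the same within-group deviations. Got1 was most like Hsdl2 (r = 0.87 over 116 arrays), Atp6v0d1 (0.82), Ngrn, Krt8 and Pls3 (0.80 to 0.81), and Got2 was most like Lad1 (0.82), Capn5 (0.80), Pdss2, Rhov and Dbnl (0.73 to 0.78). Krt8 is a keratin of simple epithelia and of urothelium, and Lad1 encodes a protein of epithelial basement membranes. Without the outlying arrays their r lay between 0.74 and 0.86. Gpt2 was most like Lgals2, C5, Rnase6, Hamp and Alx4, at 0.89 to 0.90 with the 2 arrays and 0.71 to 0.77 without them. The remaining 114 arrays still hold the rosiglitazone arrays with Gpt2 signals over 7. This ranking is of the brighter Gpt2 probe, which correlated with the second at 0.17 over 116 arrays and 0.08 over 114.

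For Gpt the ranking depended on the outlying arrays. Prkar2b (0.72), Smurf1, Echdc3, Arhgef1 and Tmem86a (0.66 to 0.67) led over 116 arrays, and their r was 0.41, 0.29, 0.20, 0.24 and 0.48 over 114. Across the 24 group means, which share the treatment pattern, Gpt was most like Hdac11 (0.87), Tmem229b (0.86), Pigzl1 (0.86), Ube2k (0.85) and Pou3f1 (0.82). Without the outlying arrays these were 0.77, 0.76, 0.84, 0.81 and 0.79. Genes ranked this way follow the treatment pattern of Gpt by choice, so their differences from vehicle are descriptions. They were -0.32, -0.54 and -0.49 for Hdac11, a histone deacetylase, and -0.38, -0.45 and -0.46 for Ube2k, a ubiquitin-conjugating enzyme.

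Around the aminotransferases, 75 genes of 5 lists were measured. With low-dose pioglitazone 2 rose and 1 fell, with high-dose pioglitazone 1 rose and 2 fell, and with rosiglitazone 2 rose and 3 fell, beside 2.84%, 6.59% and 5.62% of all genes tested, so nothing particular to the lists is read from these counts. The median difference over the 75 genes was 0.02, 0.08 and 0.01, beside 0.01, -0.01 and 0.00 over all genes tested, and the counts changed with the arrays used: without the 2 outlying arrays 5 genes passed at each pioglitazone dose. The one gene that rose with all treatments was Slc38a2, the neutral amino acid transporter SNAT2 that carries alanine and glutamine into cells. It averaged 11.59 ± 0.28, 11.57 ± 0.45 and 11.64 ± 0.40, against 11.24 ± 0.30 in vehicle rats, with differences of 0.35, 0.32 and 0.39 (limma, adjusted p = 0.0144, 0.0129 and 0.00117).

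The malate-aspartate shuttle partners of Got1 and Got2 passed in 0 of 5 with each treatment, with medians of 0.16, 0.08 and 0.07. Malate dehydrogenase differences were 0.16, 0.08 and 0.12 for the cytosolic Mdh1 and 0.24, 0.17 and 0.17 for the mitochondrial Mdh2. The carriers gave 0.09, -0.01 and -0.03 for Slc25a11, which exchanges 2-oxoglutarate for malate, and 0.32, 0.03 and 0.07 for Slc25a13, one of the aspartate-glutamate carriers. Genes of pyruvate and lactate use passed in 0 of 20, with medians of 0.09, 0.12 and 0.12. Dlat and Dld, subunits of the pyruvate dehydrogenase complex, gave 0.20, 0.16 and 0.29 and 0.19, 0.24 and 0.18. Dlat passed with all treatments without the 2 outlying arrays (limma, adjusted p = 0.0245, 0.00938 and 0.00323). It passed in only 3, 3 and 8 of 34 alternatives, where the adjusted p reached 0.697, 0.676 and 0.302. Pdk4, the kinase that inhibits that complex and a textbook PPAR target, gave -0.02, 0.20 and 0.10.

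Among the other aminotransferases, 1 of 9 passed. Phykpl, a phospho-lyase related in sequence to aminotransferases, gave -0.26, -0.28 and -0.15 and passed with high-dose pioglitazone only. Bcat2, the mitochondrial branched-chain aminotransferase, gave -0.26, -0.31 and -0.30 without passing. It passed in 10 of 34 alternatives at the high dose (lowest adjusted p = 0.00534) and in 2 of 34 each at the low dose and with rosiglitazone, among them rosiglitazone without the outlying arrays (adjusted p = 0.0412). Oat, ornithine aminotransferase, gave 0.07, 0.40 and 0.29. Besides Slc38a2, none of the 24 genes of glutamate, glutamine and aspartate handling passed; Glud1, glutamate dehydrogenase, gave -0.08, -0.04 and -0.07.

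Gpt2 is a known target of the amino acid response factor ATF4 in human and mouse cells, and 19 genes of that response were measured. Cebpb, a leucine zipper factor that partners ATF4, fell with each treatment by 0.26, 0.29 and 0.23 (limma, adjusted p = 0.0356, 0.00609 and 0.0389). Gadd45a, a stress-induced gene, gave 0.29, 0.23 and 0.25 and passed with low-dose pioglitazone and with rosiglitazone. Chac1 and Ddit4, a glutathione-degrading enzyme and an inhibitor of mTORC1 signalling, passed with rosiglitazone only. Chac1 gave -0.11, -0.21 and -0.27, and Ddit4 gave -0.22, -0.13 and -0.37. The Chac1 call held in 15 of 33 alternatives (limma, adjusted p from 0.0116 to 0.527). The list held 1 rise and 1 fall, 1 fall, and 1 rise and 3 falls at the low and high pioglitazone doses and with rosiglitazone, beside the same shares of all genes, and nothing particular to it is read from them.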

How the data were processed

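Gene expression was measured on one-colour Agilent arrays of scraped rat bladder urothelium, 1 animal per array. Values in the deposited table are on a log2 scale, prepared by the authors. The submitters' processing notes name limma, while its version, the background correction and the normalisation are not given in the sources used here. Where several probes shared a symbol the one of highest mean signal stood for the gene, and the lowest 25 percent of genes (mean under 5.26) were left out, leaving 12713 genes on 116 arrays. Linear models (limma 3.58.1, R 4.3.3) held 1 mean for each of the 24 groups, with moderated variances that follow the mean signal and 92 residual and 3.96 prior degrees of freedom, and p-values were adjusted over all genes by Benjamini-Hochberg and called under 0.05. Intervals are 95% confidence intervals. The same fit was also run on arrays simulated with known changes, with means and spreads taken from these data. P-values measure the spread between these animals.

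Of the probes, 20369 carry 1 symbol, 0 carry several and 9998 carry none; 17245 were matched to RefSeq by accession, which changed 2887 symbols.

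The members and the gene lists were chosen with earlier results of these data known. The named genes follow a rule. It takes the 4 members, the 5 genes most like each by within-group deviations (for Gpt also by group means), up to 4 genes of each list with the smallest p, the marker genes that passed, and Pdk4, Pparg, Slc25a11, Mdh1, Mdh2 and Glud1. Not all of them are printed, and predicted loci were passed over. Tables and plots were made with Python 3.11.15, pandas 2.3.3, numpy 2.4.6 and matplotlib 3.10.9.

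Alternatives were the arrays that failed quality control, other scalings, filters and probes, the replicate number as a block, no variance trend, array weights, leaving out each replicate, and single sexes and days. Leaving out arrays of low correlation and using marker means as covariates were added after seeing the data.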

Additional observations from a re-analysis of the deposited data

Results flagged for a closer look

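In 17 of the 96 groups of 4 or 5 arrays (24 for each gene), the gap between an extreme array and its nearest neighbour, divided by the group's range, exceeded Dixon's 95% critical value; chance gives this in about 1 in 20 groups. For Gpt, rosiglitazone males at day 90, replicate 4, read 11.26 and the others of the group 9.97 to 10.35.

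For Gpt2 the extreme array was the highest of its group in 6 cases: 6.47 in low-dose pioglitazone females at day 3 (others at most 5.61), 9.85 in low-dose females at day 28 (5.74 to 6.64), 10.15 in high-dose females at day 3 (5.57 to 5.79), 6.90 in high-dose females at day 90 (5.68 to 5.97), 7.83 in rosiglitazone females at day 28 (5.72 to 6.32) and 5.81 in vehicle females at day 90 (5.28 to 5.37). It was the lowest, 5.23, in high-dose males at day 90 (5.73 to 5.83). The signals of 9.85 and 10.15 are those of the 2 outlying arrays.

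For Got1 the extreme array was always the lowest: 9.63 in low-dose females at day 3, 10.36 in high-dose males at day 3, 9.75 in high-dose males at day 28, 10.13 in rosiglitazone males at day 28, 9.51 in rosiglitazone females at day 90 and 9.24 in vehicle males at day 3. For Got2 it was also the lowest, 12.04 in rosiglitazone females at day 90, 11.39 in vehicle males at day 3 and 12.46 in vehicle males at day 28. The arrays of vehicle males at day 3 and of rosiglitazone females at day 90 are the same for Got1 and Got2, with median correlations to the other arrays of 0.930 and 0.929.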

How the results depend on the processing

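Over 40 alternatives the Gpt difference ran from -1.02 to -0.52 for low-dose pioglitazone, from -1.33 to -0.55 for the high dose and from -1.09 to -0.58 for rosiglitazone. With the failing arrays included Gpt was -2.22 in low-dose males at day 90 and -2.94 in high-dose females at day 3. In those high-dose females Gpt was -1.27 with array weights, -1.14 and -1.10 without arrays correlating under 0.9 and 0.95, -1.56 with the leukocyte covariate, and -2.61 to -1.14 leaving out each replicate. The leukocyte covariate, fitted on all 116 arrays, also gave Gpt -0.17 in high-dose males at day 90 and -0.33 in rosiglitazone females at day 28. Got1 in vehicle females minus males was -0.49 with array weights (limma, adjusted p = 0.0207). The adjusted p of Got2 across vehicle days ran from 0.037994 to 0.43462 leaving out each replicate. Gpt2 could not be computed with the filter at 50 percent.

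Of 75 pathway genes, 3 were called at the low dose, and 0 with failing arrays, 27 with array weights, 5 and 10 without arrays under 0.9 and 0.95, and 0 to 5 leaving out replicates. At the high dose 3 were called, and 1 with failing arrays, 6 with the stricter filter, 14 with weights, 5 and 14 without those arrays, 9, 1 and 11 with the smooth muscle, leukocyte and urothelium covariates, and 2 to 6 leaving out replicates. With rosiglitazone 5 were called, and 0 with failing arrays, 3 without a filter, 14 with weights, 3 and 8 with the leukocyte and urothelium covariates, and 1 to 6 leaving out replicates. Among all genes 361, 838 and 715 were called, 63, 314 and 136 with failing arrays, 3168, 1895 and 1993 with weights, and 156, 563 and 440 without the vehicle arrays numbered 1. Causes were not tested.

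Replicate numbers did not pair the animals: deviations of same-numbered arrays correlated at a mean of -0.008, and 19 of 116 arrays correlated best with their own number. With the replicate number as a block Gpt gave -0.82, -0.95 and -0.88, and 329, 809 and 701 genes were called.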

Other observations

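The 3 arrays with a failing quality mark entered no comparison. High-dose pioglitazone females at day 3, replicate 2, read 5.20 for Gpt, 10.60 for Gpt2, 13.50 for Got1 and 11.43 for Got2, beyond the range of the 4 arrays used in that group for each of the 4 genes. Low-dose pioglitazone males at day 90, replicate 5, read 4.39 for Gpt, 9.78 for Gpt2, 6.99 for Got1 and 9.22 for Got2. High-dose pioglitazone males at day 3, replicate 5, read 8.41 for Gpt, 5.61 for Gpt2, 11.75 for Got1 and 13.97 for Got2, and of these Gpt2 lay inside its group's range.

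Without the 2 outlying arrays, and named after their values were seen, Plaat3, Mpo, Mtarc1, Otulinl and Gstz1 were most like Gpt within groups (r = 0.52 to 0.53 over 114 arrays), and Spi1, Rnase6, Alx4, Spns3 and Ly49s6 were most like Gpt2 (0.75 to 0.77). These values are descriptions across arrays that share treatment groups and tissue makeup. The 114 arrays still hold the rosiglitazone arrays with Gpt2 signals over 7.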
